A study of Mus musculus with 6 samples.

Results

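YAP and TAZ, encoded by Yap1 and Wwtr1, are transcriptional co-activators that have no DNA-binding domain of their own and act through the TEAD transcription factors (Tead1 to Tead4). The kinases LATS1 and LATS2 phosphorylate YAP and TAZ, which keeps them out of the nucleus, and this cascade is known as the Hippo pathway. AMOTL2, a protein of the angiomotin family, binds YAP at cell junctions and the cytoskeleton, and AJUBA, a LIM-domain protein, binds and restrains LATS kinases. In skeletal tissues YAP and TAZ are known as sensors of matrix stiffness, cell shape and load, and their activity is set largely by phosphorylation and location in the cell, neither of which transcript counts measure.

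These 10 genes, taken by symbol, are described here in 6 single-cell libraries of mouse fracture callus, where they were 10 of the 52081 genes listed in every library. Calluses were taken 14 days post-fracture (dpf) from 12-week-old mice with a femoral fracture, which the study's methods describe as male, and cells were released by enzymes and sequenced from the transcripts' 3′ ends, each captured transcript counted once by its unique molecular identifier (UMI). The 3 controls carry the genotype wt in the labels and Piezo1f/f in the methods. The other 3 libraries, labelled knockout, are Piezo1Col2a1 mice, that is Col2CreERT2 with Piezo1f/f, in which the Col2a1 promoter drives a tamoxifen-dependent Cre in cells that express Col2a1; their labels write the deleted gene as Piezo3 and the series' design text as Piezo1. Controls and Piezo1Col2a1 mice alike were given tamoxifen (75 mg/kg, daily for 5 days starting on day 5).

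The libraries held 57626530 to 103784364 UMIs, and 41865 cells were kept, 3109 to 10065 a library. Of these, 33608 cells fell into 22 classes named "X-like" from marker genes, and 16 classes had at least 10 cells in all 6 libraries, namely 10 stromal or vascular and 6 immune classes. The marker list of the pericyte-like class held pericyte genes such as Rgs5 and smooth muscle genes such as Myh11 and Acta2. Pericytes and smooth muscle cells were therefore not told apart in this class. Pairs of libraries shared 4 to 36 cell barcodes, at most 0.383% of the smaller one. Piezo1 itself, the targeted gene, was measured at 67.8, 42.7 and 52.6 UMIs per 1000000 UMIs (CPM) in chondrocyte-lineage cells of controls 1 to 3 and at 135, 52.97 and 46.9 in libraries labelled knockout 1 to 3, a log2 difference of 0.55 ± 0.39 (SE). Since 3′ UMIs tag the transcript's end and the exons deleted are not given in the sources used here, this neither checks nor contradicts the labels, and every genotype direction below rests on them. Knockout library 3 went against the stated sex, with Xist at 568 CPM against 0.139 or less in the other 5 libraries and no UMI of the Y-linked gene Ddx3y, which was at 52.5 to 125 in the others. Knockout library 2 stood apart in its makeup, with 27 chondrocyte-like and 23 hypertrophic chondrocyte-like cells, and its share of UMIs from the 10 genes was the lowest, 239 CPM against 413 to 680 in the others.

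TEAD proteins bind the sequence CATTCC, best known in the form ACATTCC, and some pathway genes are themselves TEAD targets. Promoters from RefSeq (GRCm38.p6), 250 bases before to 50 after each start, were matched for 8 of the 10 genes, and not for Tead1 or Tead4. CATTCC, searched on both strands, was present in the promoters of 6 of these 8 genes (Ajuba, Amotl2, Lats2, Tead3, Wwtr1 and Yap1). It was present in 14.66% of the 32851 promoters searched, which did not cover every chromosome, or for 16.58% of the 27025 genes with one of these. The longer ACATTCC, which contains CATTCC, was present for 4 of the 8 genes, Ajuba, Amotl2, Tead3 and Yap1, and for 4.466% of the 27025 genes. The windows of 60 bases below are shown because they hold ACATTCC in these genes and in Ccn1, the target gene whose levels are given further on, each written 5′ to 3′ on the gene's strand with the motif, or its reverse complement in Yap1, in capitals.
Ajuba, chr14:54577816-54577875, minus strand: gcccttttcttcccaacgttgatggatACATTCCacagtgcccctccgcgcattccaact
Amotl2, chr9:102717711-102717770, plus strand: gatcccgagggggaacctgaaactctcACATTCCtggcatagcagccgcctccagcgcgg
Tead3, chr17:28350683-28350742, minus strand: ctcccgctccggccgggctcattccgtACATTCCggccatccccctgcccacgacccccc
Yap1, chr9:8004705-8004764, minus strand: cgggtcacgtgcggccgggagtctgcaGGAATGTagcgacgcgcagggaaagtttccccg
Ccn1, chr3:145650057-145650116, minus strand: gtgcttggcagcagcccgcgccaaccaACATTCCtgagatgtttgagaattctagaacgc
In these windows the motif began 187 bases before the start of Ajuba, 66 before that of Amotl2, 115 for Tead3, 141 for Yap1 and 104 for Ccn1, counted from the RefSeq starts. The GENCODE gene models used for the positions below begin further upstream for Amotl2 and Tead3, so these windows lie inside those models. A match is a description of the sequence, not a bound site, and no binding was measured in these data.

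By the GENCODE M21 annotation of GRCm38, the 10 genes lie on 7 chromosomes. Yap1 (chr9:7931999-8004596, minus strand) and Amotl2 (chr9:102716672-102733418, plus) share chromosome 9, Tead1 (chr7:112679318-112906807, plus) and Tead2 (chr7:45215753-45233644, plus) share chromosome 7, and Lats2 (chr14:57689662-57758388, minus) and Ajuba (chr14:54567472-54577558, minus) share chromosome 14. Wwtr1 is at chr3:57455649-57575910, Tead3 at chr17:28331671-28350817 and Tead4 at chr6:128224288-128300823, all on the minus strand, and Lats1 at chr10:7681214-7716460 on the plus strand. Tead1 and Lats2 each overlap 1 gene on the same strand (Gm44462 and Gm49361), so that reads in the shared part are uncertain. Tead2 overlaps Cd37, a gene of leukocytes, on the opposite strand.

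Levels are given in CPM, UMIs per 1000000 UMIs summed over a class in a library, as the mean ± SD over the 6 libraries. A 3′ UMI counts a transcript whatever its length, but capture differs between genes, so levels are compared across classes within a gene and not between genes. Because the classes are clusters of the same cells, their differences are described by the number of libraries that held them and not tested.

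Of the co-activators, Wwtr1 was highest in endothelial-like cells in 6 of 6 libraries. There the level was 403 ± 61.3 CPM, with a lowest library of 304, a median of 406 and a highest of 470. The lowest endothelial library was knockout library 2. The tendon-like class came next at 228 ± 78.2 and chondrocyte-like cells at 203 ± 58.7, neighbours whose order held in 4 of 6 libraries only. In chondrocyte-like cells 5 libraries lay between 185 and 263 and knockout library 2 was at 95.8. Wwtr1 was 2.94 times as high in endothelial-like as in pericyte-like cells (137 ± 25.6) and 2.103 times as high in chondrocyte-like as in osteoblast-like cells (96.6 ± 17.3), the lowest stromal class, both in 6 of 6 libraries. Within the chondrocyte lineage the hypertrophic class was at 146 ± 47.7, below the chondrocyte-like class in 6 of 6 libraries.

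Yap1 varied much less across stromal and vascular classes, 1.80 times from the highest to the lowest against 4.17 times for Wwtr1. Its highest mean was in pericyte-like cells, 79.7 ± 25.8, with libraries from 44.6 to 112 and a median of 82.6. Endothelial-like cells followed at 70.7 ± 14.5 and marrow stromal-like cells at 67.1 ± 11.9, and pericyte-like cells were above endothelial-like ones in 3 of 6 libraries, so the order at the top is not settled by these libraries. Chondrocyte-like cells were lowest at 44.3 ± 10.2, below pericyte-like cells in 6 of 6 libraries. They did not differ from osteoblast-like cells (47.7 ± 14.2) beyond the spread, being higher in 2 of 6.

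The co-activators thus mixed in different ratios. Of the UMIs of Yap1 and Wwtr1 together, Yap1 made up 14.9% ± 2.00 in endothelial-like cells, with libraries between 11.4% and 16.8%, and 18.9% ± 6.60 in chondrocyte-like cells. Its share was 32.9% ± 5.78 in osteoblast-like, 36.4% ± 7.01 in pericyte-like and 38.9% ± 8.70 in marrow stromal-like cells. These are shares of captured transcript ends, which say nothing of protein.

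**Figure D1:**
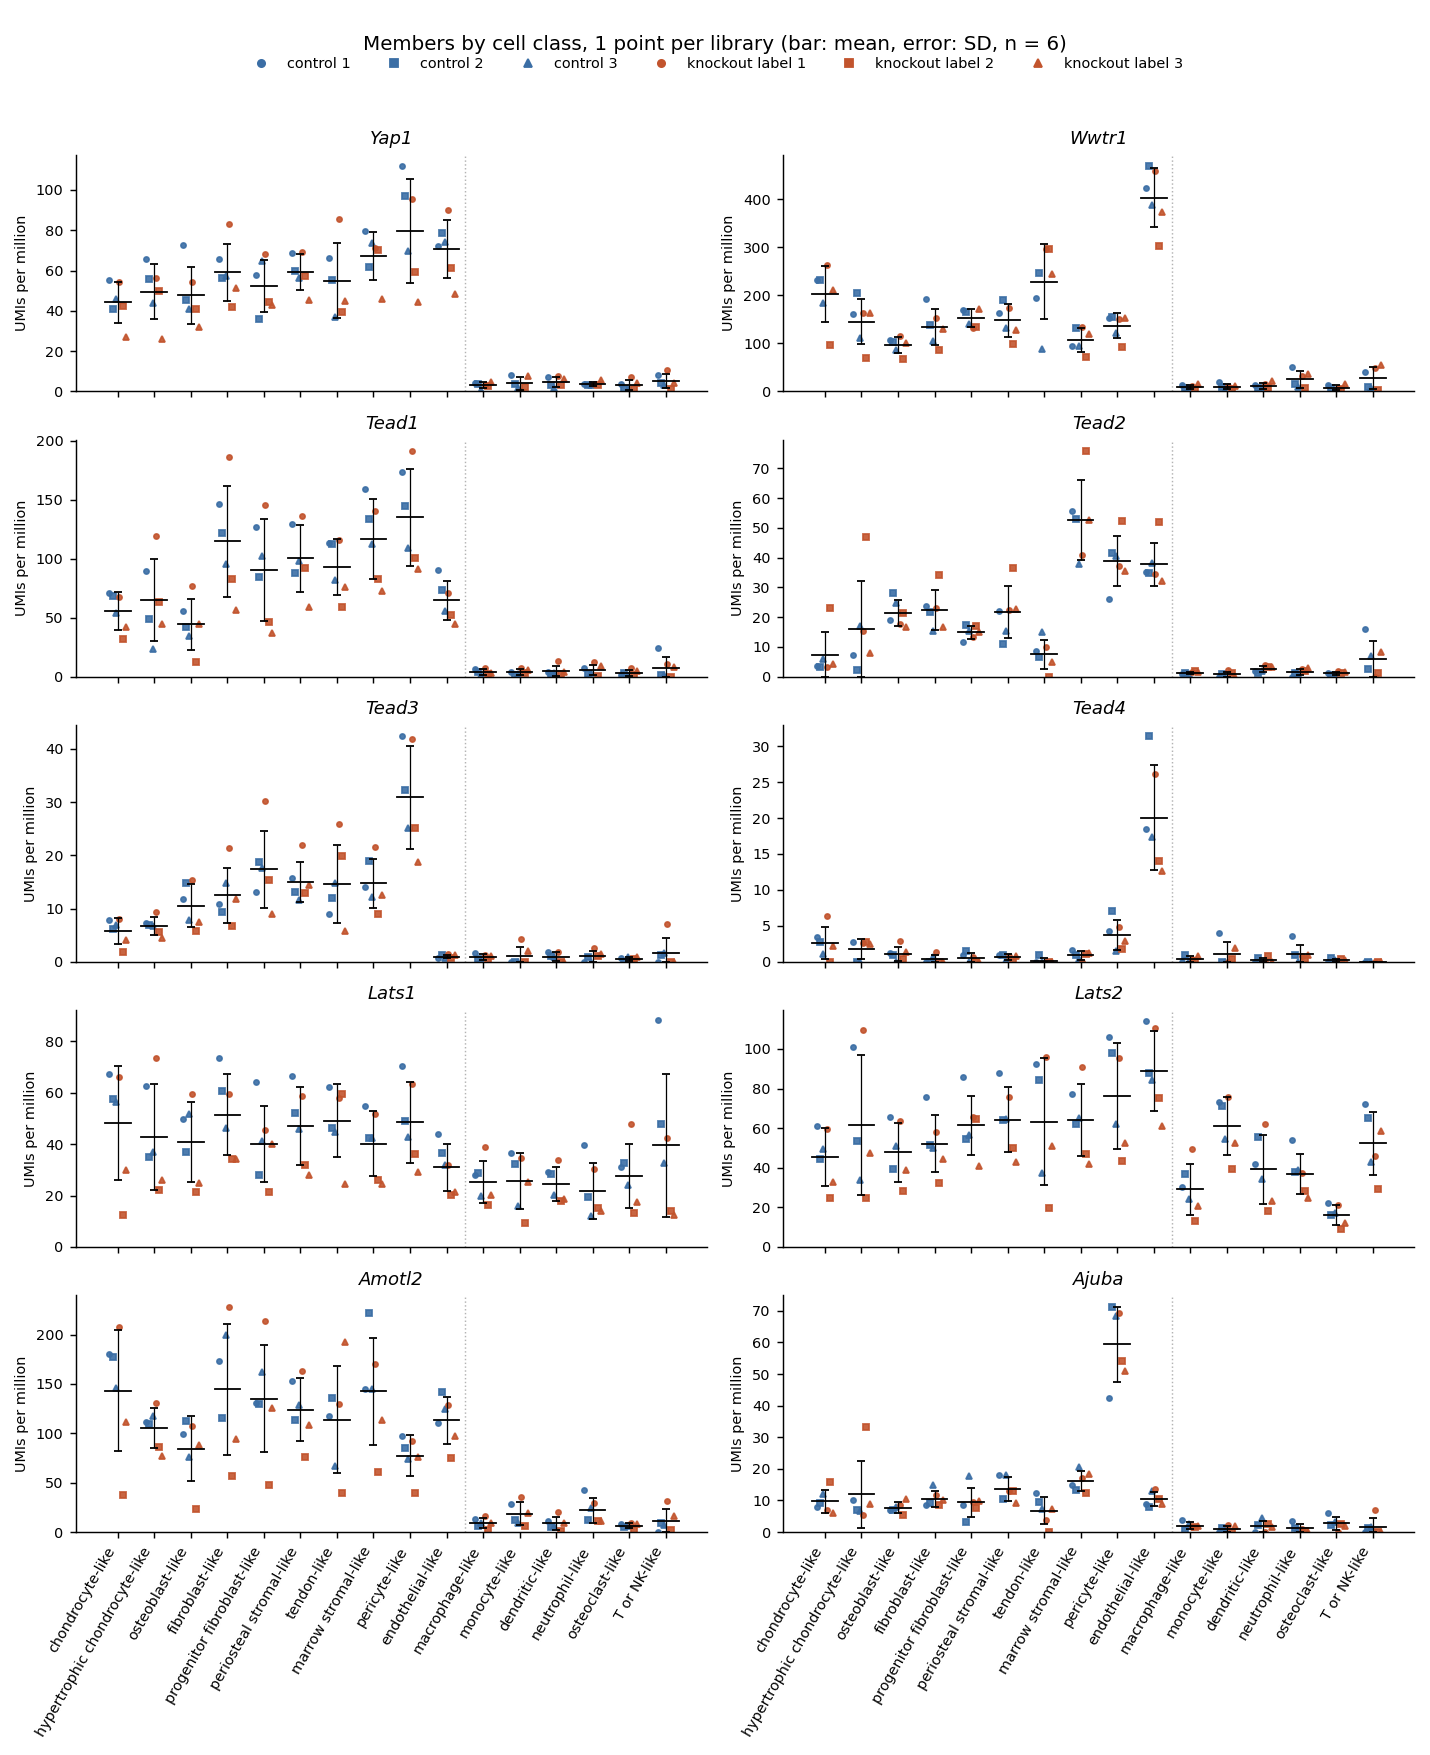
Each panel plots 1 gene, with CPM on a linear axis from 0 and the 16 classes found in all 6 libraries along the bottom, stromal and vascular classes left of the dotted line and immune classes right of it. Points are libraries (blue controls, orange libraries labelled knockout), bars are means and error bars SD over 6 libraries, drawn down to 0 at most. Wwtr1 and Tead4 peak in endothelial-like cells, Tead3 and Ajuba in pericyte-like cells, and Lats1 and Lats2 alone keep high levels in the immune classes.

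Among the TEAD genes, Tead1 was highest in pericyte-like cells at 135 ± 41.3, with a lowest library of 91.2, a median of 127 and a highest of 191, followed by marrow stromal-like cells at 117 ± 34.1 and fibroblast-like cells at 115 ± 46.9. Pericyte-like cells were above marrow stromal-like cells in 5 of 6 libraries. Osteoblast-like cells were lowest of the stromal and vascular classes at 44.3 ± 21.4, with pericyte-like cells 3.05 times as high and above them in 6 of 6 libraries. Endothelial-like cells were at 64.6 ± 16.8 and chondrocyte-like cells at 55.9 ± 16.1.

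Tead2, the family member known from early embryos, was highest in marrow stromal-like cells at 52.6 ± 13.4, with libraries from 37.8 to 75.7 and a median of 52.8. Pericyte-like (38.9 ± 8.54) and endothelial-like cells (37.8 ± 7.22) came next, and marrow stromal-like cells were above pericyte-like cells in 5 of 6 libraries. Chondrocyte-like cells were lowest of the 10 classes at 7.24 ± 7.81, a mean raised by knockout library 2 at 23.1, with the other 5 libraries between 3.28 and 5.95. Marrow stromal-like cells were 7.27 times as high as chondrocyte-like cells and endothelial-like cells 5.22 times, both in 6 of 6 libraries. Osteoblast-like cells, at 21.2 ± 4.38, were above chondrocyte-like cells in 5 of 6.

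Tead3 and Tead4 had opposite vascular patterns. Tead3 was highest in pericyte-like cells in 6 of 6 libraries, at 30.9 ± 9.68 with libraries from 18.7 to 42.4, and was at 0.989 ± 0.331 in endothelial-like cells, where 53 UMIs were found in all. The ratio of these means was 31.3, and in no library was it below 15.0. All other stromal classes lay between 5.86 ± 2.46 in chondrocyte-like and 17.3 ± 7.25 in progenitor fibroblast-like cells.

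Tead4, which is known for its part in the trophectoderm and in muscle, was highest in endothelial-like cells in 6 of 6 libraries. The level there was 20.02 ± 7.30, with a lowest library of 12.6, a median of 18.0 and a highest of 31.4. Pericyte-like cells were at 3.71 ± 2.11, with endothelial-like cells 5.40 times as high in 6 of 6 libraries, and chondrocyte-like cells at 2.63 ± 2.19. In the other 7 stromal classes the mean was 1.77 or less, levels near those of single UMIs in the smaller classes.

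The makeup of TEAD transcripts therefore differed by class. In endothelial-like cells Tead1 gave 51.8% ± 6.12 of the UMIs of the 4 genes, Tead2 31.3% ± 7.73, Tead4 15.995% ± 4.13 and Tead3 0.827% ± 0.339. Pericyte-like cells had 63.9% ± 5.43 Tead1, 19.8% ± 6.91 Tead2, 14.6% ± 1.52 Tead3 and 1.73% ± 0.822 Tead4. Chondrocyte-like cells were led by Tead1 most strongly of these, at 77.0% ± 10.4, and osteoblast-like cells held 54.5% ± 13.6 Tead1 and 30.7% ± 13.498 Tead2. Knockout library 2, with 1490 of the 2495 osteoblast-like cells, had the reverse order there, 31.3% Tead1 and 53.4% Tead2. Across the 10 stromal and vascular class means, which share libraries and depth, Tead3 and Tead4 had a Pearson r of -0.71 (n = 10 classes, a description).

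**Figure D2:**
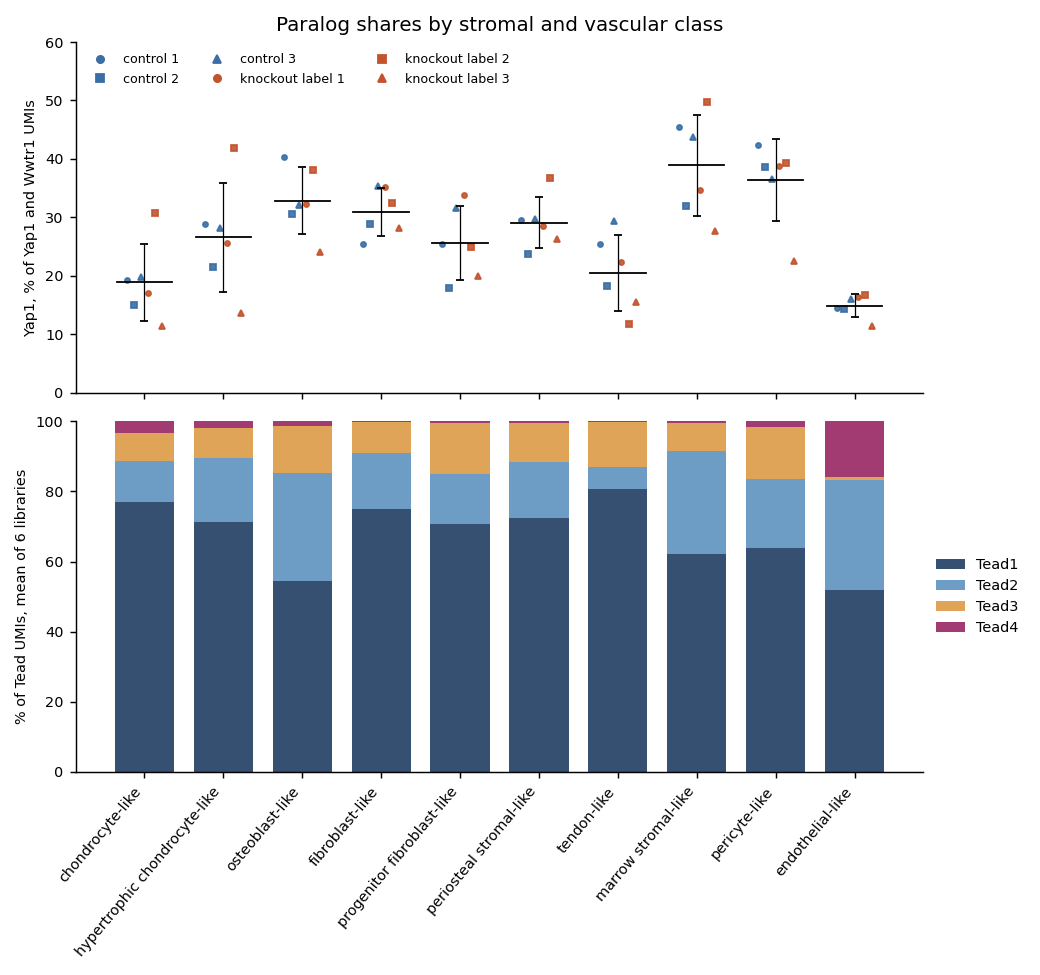
The upper panel plots Yap1 as a percentage of Yap1 and Wwtr1 UMIs, 1 point per library with mean and SD (n = 6), and the lower panel stacks the mean percentages of Tead1 to Tead4, for the 10 stromal and vascular classes. Endothelial-like cells have the smallest Yap1 share, 14.9%, the largest Tead4 part, 15.995% (next 3.43% in chondrocyte-like cells), and almost no Tead3.

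Of the kinases, Lats2 was highest in endothelial-like cells in 5 of 6 libraries, at 88.8 ± 20.4 with libraries from 61.1 to 114. Pericyte-like cells followed at 76.3 ± 26.8, and chondrocyte-like cells were lowest of the stromal classes at 45.4 ± 14.5, with endothelial-like cells 1.96 times as high in 6 of 6 libraries. Lats1 was nearly level across stromal classes, from 51.4 ± 15.8 in fibroblast-like to 31.0 ± 9.06 in endothelial-like cells. The fibroblast-like class was the highest in 1 of 6 libraries, so no class can be named as the top for Lats1. Of the UMIs of both kinases, Lats1 made up 25.7% ± 3.21 in endothelial-like cells and 49.2% ± 8.32 in chondrocyte-like cells.

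Unlike the other members, the kinases were carried by immune cells at a large part of their stromal levels. Among the myeloid classes Lats2 was at 61.1 ± 14.5 in monocyte-like, 29.0 ± 12.7 in macrophage-like and 16.3 ± 5.15 in osteoclast-like cells, an order seen in 6 of 6 libraries. The monocyte-like level was 2.104 times the macrophage-like and 3.76 times the osteoclast-like level. Lats1 did not follow this order, with 25.7 ± 10.9, 25.3 ± 8.22 and 27.6 ± 12.4 in the same classes.

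Amotl2 was spread broadly over stromal cells. Fibroblast-like (145 ± 66.3), chondrocyte-like (143 ± 61.4) and marrow stromal-like cells (143 ± 54.1) could not be ordered, since each was above the next in 3 of 6 libraries. A cluster led by Chil1 and Lcn2, which was given no class name, was at 157 ± 88.3. Of the stromal and vascular classes pericyte-like cells were lowest at 77.3 ± 20.5, followed by osteoblast-like cells at 84.6 ± 32.7, the latter below chondrocyte-like cells in 6 of 6 libraries.

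Ajuba was concentrated in pericyte-like cells in 6 of 6 libraries. The level was 59.4 ± 11.9, with a lowest library of 42.4, a median of 61.3 and a highest of 71.2, and the marrow stromal-like class came next at 16.2 ± 3.21, a ratio of 3.66. Chondrocyte-like cells were at 9.70 ± 3.71 and endothelial-like cells at 10.5 ± 2.28. The related LIM-domain genes Limd1 (185 ± 64.6) and Wtip (150 ± 28.8), looked up after the Ajuba values were seen, also had their highest class mean in pericyte-like cells.

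Yap1, Wwtr1, Tead1 and Amotl2 separated stromal from immune cells: in 6 of 6 libraries every one of the 10 stromal and vascular classes was above every one of the 6 immune classes. Averaged over classes, Yap1 was at 58.5 ± 12.3 against 4.02 ± 1.71, a ratio of 14.5 with libraries from 7.47 to 27.0, Wwtr1 at 176 ± 30.6 against 15.2 ± 9.74 and Tead1 at 88.0 ± 28.0 against 4.85 ± 3.38. For Lats1 the ratio was 1.601 and for Lats2 1.596. Droplets also catch free RNA from broken cells, so genes that immune cells should lack were taken as a measure of it. Col2a1, the cartilage collagen, was in immune classes at 2.23% to 4.59% of its level in chondrocyte-like cells, Col1a1 at 1.26% to 2.40% of its home level, and the endothelial genes Cdh5 and Kdr at 0.322% to 1.495%. Yap1 (3.96% to 6.59% of its highest class), Wwtr1 (2.01% to 6.78%) and Tead1 (2.20% to 5.68%) were within or somewhat above this range. Lats1 (42.3% to 77.0%) and Lats2 (18.3% to 68.8%) were far above it. The measure is rough, since it differed by gene and library. In immune classes of knockout library 2, Col2a1 was at 0.0614% to 0.118%, Col1a1 at 2.15% to 2.65% and Yap1 at 2.14% to 5.19%. Whether the immune levels of Yap1, Wwtr1 and Tead1 are expression or free RNA was not tested. Amotl2 reached 15.2% in neutrophil-like cells and 12.8% in monocyte-like cells.

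**Figure D3:**
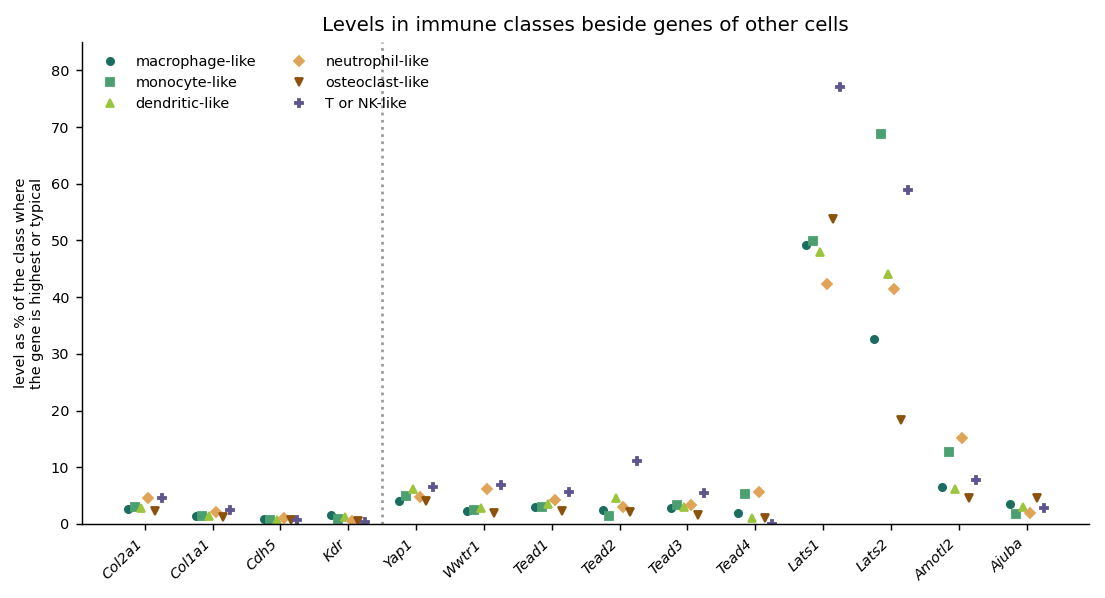
The vertical axis is the level in an immune class as a percentage of the class where the gene is typical (Col2a1, Col1a1, Cdh5 and Kdr, left of the dotted line) or highest (the 10 genes), from means over 6 libraries, with 1 marker shape per immune class. Lats1 and Lats2 lie between 18.3% and 77.0%, and Yap1, Wwtr1, Tead1, Tead3 and Ajuba at 6.78% or less.

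Within the endothelial-like class, clusters differed for several members. The cluster led by capillary genes such as Flt1, Kdr and Gpihbp1 had the most Wwtr1, 449 against 351 CPM in the venous cluster (Selp, Ackr1) and 365 in the arterial cluster (Gja4, Gja5), in 6 of 6 libraries each. Tead2 was ordered arterial (54.3), capillary (37.6) and venous (24.5), and Lats2 was at 116 in the arterial and 87.1 in the capillary cluster, all in 6 of 6 libraries. Yap1 was higher in the venous cluster, 88.7 against 67.8 in the capillary one, in 5 of 6. A small cluster with the lymphatic markers Prox1, Lyve1 and Flt4 had enough cells in 3 libraries, and in all 3 it exceeded the capillary cluster in Yap1 (101 against 63.4), Tead1 (104 against 56.6) and Ajuba (29.1 against 9.20). The same held for Tead2 (56.5 against 33.8), while Wwtr1 (345 against 447) and Tead4 (13.8 against 19.8) were higher in 0 of 3.

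In the chondrocyte lineage the cluster led by Sfrp5 was above the Epyc cluster in 6 of 6 libraries for Yap1 (51.7 against 39.9), Tead1 (67.2 against 48.3), Tead2 (12.8 against 4.31) and Lats2 (54.1 against 39.5). For Wwtr1 the Sfrp5 cluster was the higher one in only 1 of 6 libraries (201 against 212), with a mean difference of -11.4 ± 60.4 (SD). These 2 clusters make up the chondrocyte-like class, which had 27 cells in knockout library 2. They held 24 UMIs of Yap1 and 32 of all TEAD genes there, and Tead2 was apart at 23.06 CPM. The Ihh and Col10a1 cluster, which is the hypertrophic chondrocyte-like class, had less Wwtr1 than the Epyc cluster (146 against 212) and more Yap1 (49.5 against 39.9) and Tead2 (16.1 against 4.31), each in 6 of 6 libraries. Beside the Sfrp5 cluster only the Wwtr1 difference held, with the Ihh cluster higher in 0 of 6 libraries (146 against 201). For Yap1 it was higher in 2 of 6 (49.5 against 51.7) and for Tead2 in 4 of 6 (16.1 against 12.8). The Tead2 mean of the Ihh cluster was raised by knockout library 2, at 47.06 against 2.321 to 16.86 in the others. UMIs were few, with 25 and 14 of all TEAD genes in the hypertrophic class of controls 2 and 3. Members were kept out of the genes used for clustering, but the clusters also differed in depth, with a median of 24692 UMIs a cell in the Epyc, 15767.5 in the Sfrp5 and 20203 in the Ihh cluster, and the part of depth in these differences was not tested.

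Ccn1 and Ccn2, secreted matricellular proteins and the best known YAP and TEAD targets, were highest in a different class from Yap1 and from Wwtr1. Their relation to the co-activators over all classes was not tested. The tendon-like class, highest for both targets, came next after endothelial-like cells for Wwtr1, at 228. It had 16, 17 and 10 cells in control 3, knockout library 1 and knockout library 2. Ccn2 was highest in tendon-like (1539 ± 764) and hypertrophic chondrocyte-like cells (1355 ± 627), whose order held in 3 of 6 libraries, and 941 ± 530 in chondrocyte-like cells. Endothelial-like cells, which had the most Wwtr1, had the least Ccn2 of the 10 classes (159 ± 75.4). Ccn1 was highest in tendon-like cells (754 ± 384, in 4 of 6 libraries) and, of the stromal and vascular classes, lowest in fibroblast-like cells (303 ± 107). Below the level of classes, the small lymphatic cluster, which had more Yap1 than the capillary cluster, had Ccn1 at 969 against 346 in 3 of 3 libraries. Its Ccn2 was the higher in 1 of 3 (151 against 129). Other cluster pairs went differently. For Ccn1 the capillary cluster was above the arterial one in 0 of 6 libraries (302 against 484), with Yap1 at 67.8 and 67.4. The Sfrp5 cluster, with more Yap1 than the Epyc cluster, was the higher in 1 of 6 for Ccn1 (384 against 485). For Ccn2 it was the higher in 0 of 6 (864 against 1001). Ankrd1, a target in muscle and fibroblast lines, was at 2.36 or less in all 16 classes and at 31.1 ± 19.2 in the muscle-like cells of 2 libraries.

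As a guide to genes of like pattern, log2 class means were correlated over all 22 named classes for the 14631 genes that reached 10 CPM in a class. All classes counted equally, also small ones found in 1 or 2 libraries. Among these were the muscle-like (36 cells), mast or basophil-like (33) and Schwann-like classes (16), whose means rest on few UMIs. The 3 genes most like Yap1 were Fermt2 (r = 0.99), Tmem98 and Msrb3, and those most like Wwtr1 were Npdc1 (0.97), Cavin3 and Parva. Parva was also among the 3 most like Tead1, with Nectin3 (0.98) and Dnal1. Tead3 was most like Arhgap42 (0.97), Clip3 and Kctd15, Tead4 like Syn2 (0.92), Reep1 and Kcnn3, and Tead2 like Amotl1 (0.95), an angiomotin of the same pathway, Tbx3 and Mex3a. Lats1 was most like Nr1d2 (0.95) and Tef, both genes of the circadian clock, and Bcl9l, and Lats2 like Btbd7 (0.93), Prkce and Lrch3. For Amotl2 they were Casp12 (0.93), Cuedc1 and Zdhhc1, and for Ajuba Mprip (0.93), Zfp532 and Lca5. Yap1 and Wwtr1 correlated at 0.94 over the 22 classes and at 0.15 over the 10 stromal and vascular ones.

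The genotype comparison asked whether these transcripts differed between controls and libraries labelled knockout, above all in the chondrocyte lineage (chondrocyte-like and hypertrophic chondrocyte-like cells), where the Cre is meant to act. The test was the quasi-likelihood fit of edgeR on UMIs summed per library, its p-values adjusted over all genes by Benjamini-Hochberg. The labels describe a callus isolated from each mouse, so libraries are taken as separate mice, although the paper's methods and results differ in the number of mice, and p-values measure the spread between these libraries. No member passed the threshold of 0.05 in the chondrocyte lineage, where 0 of 14609 genes did (0%). Of these genes 317, or 2.17%, and none of the 10 members had an unadjusted p under 0.05, and DESeq2 called 2 genes (0.0137%) and no member. Of the members 7 of 10 had a log2 difference below 0, as did 51.6% of all genes. The mix of the classes differed between libraries: hypertrophic chondrocyte-like cells were 118 of 594, 25 of 550 and 19 of 531 lineage cells in controls 1 to 3 and 54 of 346, 23 of 50 and 437 of 1709 in libraries labelled knockout 1 to 3, and its part in the lineage values, of Wwtr1 and Tead2 above all, was not tested. The design, 3 libraries against 3, leaves SEs of 0.28 to 0.70 on the log2 scale for the members, so differences of that size could not be resolved. Larger ones could go uncalled too, as did that of Tead2 (1.25 ± 0.70), so the absence of a call does not exclude a difference.

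Yap1 was at 57.1, 41.5 and 45.7 CPM in controls 1 to 3 and at 54.5, 45.4 and 26.9 in libraries labelled knockout 1 to 3, a log2 difference of -0.18 ± 0.28 (SE; edgeR adjusted p = 0.999). Wwtr1 was at 218, 231 and 180 against 248, 85.4 and 201 (-0.19 ± 0.40). The ranges overlapped for both, and leaving out knockout library 2 turned the Wwtr1 difference to 0.16 while leaving out knockout library 3 turned that of Yap1 to 0.04.

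Tead2 had the highest log2 difference of the members, 1.25 ± 0.70 (adjusted p = 0.999). Controls were at 4.37, 3.24 and 6.58 and libraries labelled knockout at 5.09, 32.4 and 5.03, so that knockout library 2, with 50 chondrocyte-lineage cells, gave most of the difference: without it the value was 0.20. Removing more likely doublets (1.6% per 1000 cells) left 24 of these 50 cells. It left 588 of 594, 449 of 550 and 481 of 531 in controls 1 to 3. In knockout libraries 1 and 3 it left 336 of 346 and 1592 of 1709. Whether the cells of knockout library 2 are doublets was not tested. Tead1 was at 74.7, 67.8 and 52.2 against 75.04, 44.3 and 42.6 (-0.23 ± 0.28), Tead3 differed by -0.27 ± 0.35 and Tead4, at 5.78 CPM or less in each library, by 0.58 ± 0.56, which became -0.09 without knockout library 1.

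Lats1 had the lowest value, -0.59 ± 0.41, with 66.3, 56.6 and 55.1 in controls and 67.2, 16.2 and 28.8 in libraries labelled knockout, and Lats2 differed by -0.27 ± 0.34. Without knockout library 2 these values were -0.27 and -0.02, and without knockout library 1 they were -1.20 and -0.67. Amotl2 was at 167, 174 and 145 against 196, 56.2 and 104 (-0.41 ± 0.41; -0.07 without knockout library 2), and Ajuba differed by 0.08 ± 0.45, which became -0.43 without that library. In this lineage 6.48% of the genes tested and 0 of the 10 members had groups that did not overlap.

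**Figure D4:**
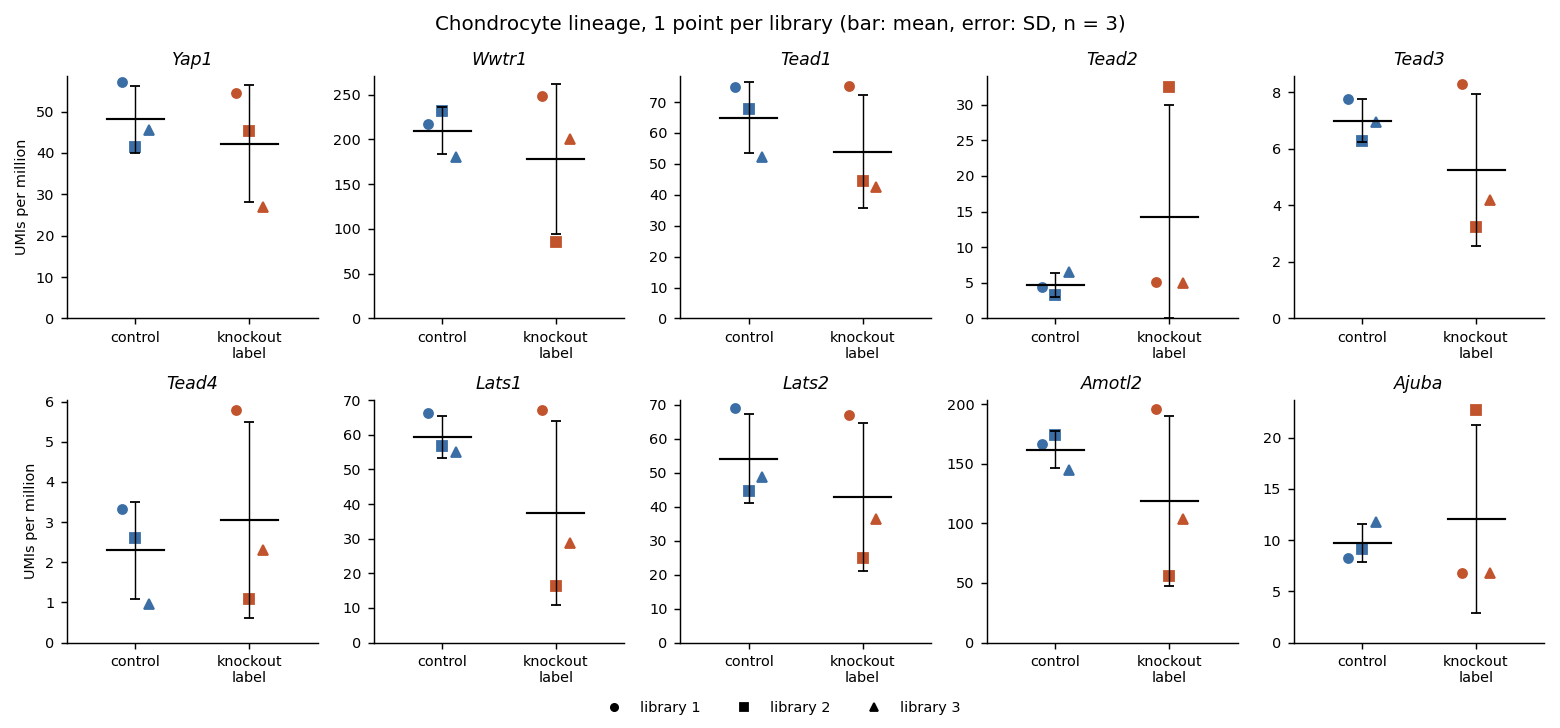
Each panel plots 1 gene in chondrocyte-lineage cells as CPM on a linear axis from 0, with 3 controls (blue) and 3 libraries labelled knockout (orange), bars at the means and error bars of 1 SD, drawn down to 0 at most. The groups overlap in all 10 panels, and knockout library 2 (square) is the highest point for Tead2 and Ajuba and the lowest for Wwtr1, Tead3, Lats1, Lats2 and Amotl2.

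Marker UMIs of other cell types were found in these sums. The 9 macrophage markers, all with at least 1 UMI, summed to 47.3 to 59.5 CPM in the chondrocyte lineage of controls and to 91.4 to 170 in that of libraries labelled knockout, with no overlap. The 9 neutrophil markers summed to 72.4 to 814 against 160 to 897, the 12 endothelial markers to 58.6 to 105 against 52.2 to 98.4 and the 6 erythroid markers to 0.742 to 717 against 5.97 to 46.2. Whether these UMIs came from other cells or from free RNA was not tested, and neither was their part in the member values.

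In the other classes no member was called either, among 9 tested in osteoblast-like cells, 9 in the fibroblast group (fibroblast-, progenitor fibroblast-, periosteal stromal- and tendon-like cells), 9 in endothelial-like and 7 in macrophage-like cells. edgeR called 0% of genes in each of these comparisons, while 3.1%, 1.97%, 5.35% and 1.39% of the genes had an unadjusted p under 0.05. DESeq2 called 0, 0, 0 and 5 genes, the last 0.0409%, none of them a member. Values below 0 were found for 8 of 9 members in osteoblast-like cells (50.4% of all genes), 7 of 9 in the fibroblast group (50.7%), 7 of 9 in endothelial-like cells (49.2%) and 4 of 7 in macrophage-like cells (47.6%). No member tested in osteoblast-like or macrophage-like cells had groups that did not overlap, as 7.53% and 4.53% of genes there did. Tead4 was too low to be tested in osteoblast-like cells and the fibroblast group, Tead3 in endothelial-like cells, and Tead2, Tead3 and Tead4 in macrophage-like cells.

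Lats1 in endothelial-like cells was the 1 member with an unadjusted p under 0.05. Controls 1 to 3 were at 44.1, 36.4 and 31.9 and libraries labelled knockout at 31.8, 20.4 and 21.3, which did not overlap, although the lowest control and the highest knockout library nearly met. The log2 difference was -0.58 ± 0.22 (edgeR adjusted p = 0.802), and 11.1% of all genes tested had groups that did not overlap, 6.18% with the knockout label lower. The value ran from -0.75 to -0.45 when each library was left out in turn. Chondrocyte markers, which should be absent from endothelial cells, summed to 506 to 4182 CPM in the endothelial-like class of controls and to 161 to 4258 in that of libraries labelled knockout. The 9 macrophage markers summed to 54.0 to 125 in controls against 106 to 290 there, and the 9 neutrophil markers to 102 to 929 against 579 to 1371. Their part in the Lats1 value was not tested.

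In the fibroblast group Tead2 was at 18.6, 11.2 and 15.4 in controls and at 21.5, 31.7 and 18.6 in libraries labelled knockout. The groups touched without overlapping, as they did for 4.94% of all genes (3.17% with the knockout label higher), and the log2 difference of 0.62 ± 0.27 was not called (adjusted p = 1.0). Knockout library 2 was again the highest.

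**Figure D5:**
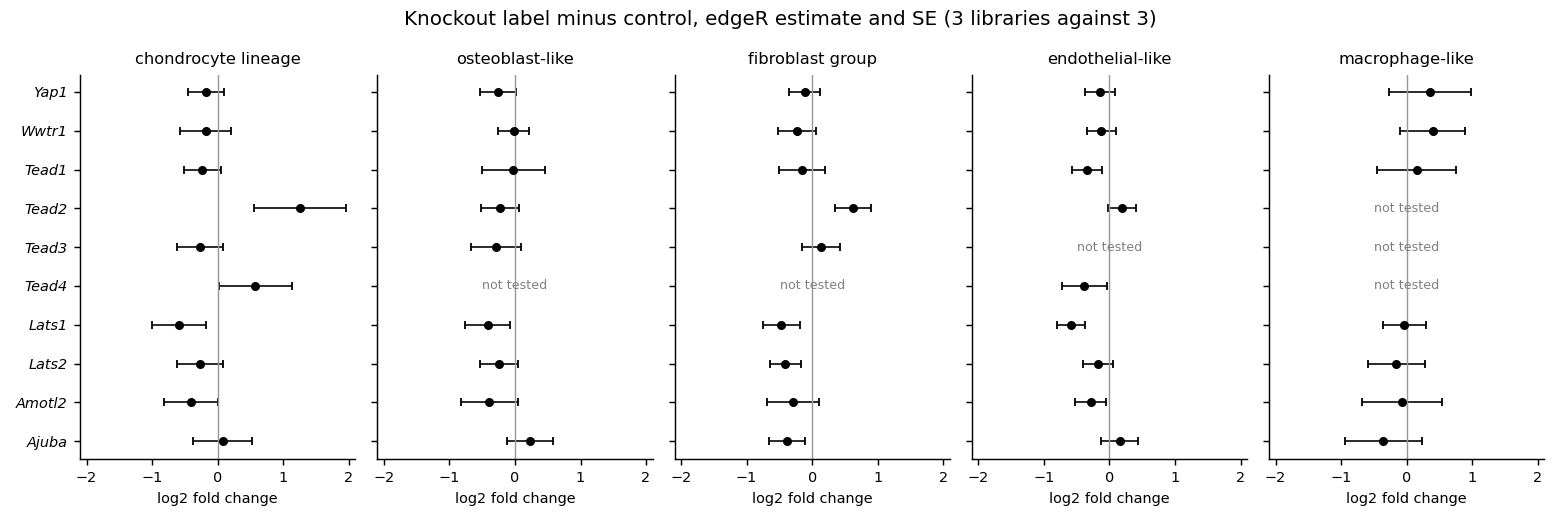
Points are edgeR log2 fold changes (knockout label minus control) and bars their SE, for the 10 members in 5 comparisons, with members too low to be tested marked as such. The chondrocyte-lineage values run from -0.59 for Lats1 to 1.25 for Tead2, and Lats1, Lats2 and Amotl2 lie below 0 in all 5 comparisons. The share of all genes that do so was not counted.

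Lats1, Lats2 and Amotl2 had a log2 difference below 0 in 5 of 5 comparisons, over -0.04 to -0.59 for Lats1, -0.16 to -0.41 for Lats2 and -0.08 to -0.41 for Amotl2, none of them called. These comparisons use the same 6 libraries and so are not independent. How many of all genes lay below 0 in all 5 was not counted, so the run cannot be called particular to these members. In the 10 stromal and vascular classes knockout library 2 was the lowest of all libraries in 9 for Amotl2, 8 for Wwtr1, 6 for Lats1 and 6 for Lats2, and the highest in 7 for Tead2. Knockout library 3 was the lowest in 7 for Yap1 and in 6 for Tead1, and knockout library 1 the highest in 9 for Tead3. Control library 1 was the highest in 8 for Lats1, in 7 for Lats2 and in 5 for Yap1, so that either control 1 or knockout 1 held the highest value in all 10 classes for Yap1, Tead1, Tead3, Lats1 and Lats2. Both libraries numbered 1 were made with Cell Ranger 6.1.1 and the others with 6.1.2. They also kept the fewest cells, 4159 and 3109, and had the most UMIs per chondrocyte-lineage cell. Control 1 had 25608800 UMIs from 594 such cells and knockout library 1 had 15911957 from 346. Control 2, by comparison, had 9571183 from 550 and knockout library 3 had 33784503 from 1709. Knockout library 3 was the library that differed from the others in Xist and Ddx3y, as given above. The part of these differences in the levels was not tested.

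Whether the genotype difference itself differed between the chondrocyte lineage and endothelial-like cells was tested as an interaction with library as a block. No member and 0 of 15697 genes were called (0%), with 722 genes (4.6%) and no member at an unadjusted p under 0.05. The difference of differences ran from -0.85 ± 0.55 for Tead3 to 0.78 ± 0.47 for Tead2.

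The 4 pathway lists, which also hold the 10 members themselves, gave the same count in the chondrocyte lineage, and their medians in part repeat the members' values. Of the core kinases and their adaptors 9 of 9 could be tested and 0 were called, with 2 values above and 7 below 0 and a median of -0.19, beside a median of -0.01 over all genes. The extremes were Lats1 and Map4k4, a kinase upstream of LATS, at 0.37 ± 0.35. Of the upstream and junction proteins 12 of 13 were tested and 0 called (median -0.10), from Ptpn14, a phosphatase that binds YAP, at -0.44 ± 0.22 to Amot at 0.18 ± 0.45. Of the TEAD cofactors 8 of 9 were tested and 0 called (median -0.18), the lowest being Vgll3, a TEAD partner, at -1.04 ± 0.49. Of 22 genes of a published YAP target signature 21 were tested and 0 called, with 7 values above and 14 below 0 (median -0.26), from Igfbp3, an IGF-binding protein, at -1.15 ± 0.56 to Gadd45a, a stress-response gene, at 0.85 ± 0.49.

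In the same lineage Ccn1 was at 487, 575 and 608 CPM in controls and at 481, 78.9 and 494 in libraries labelled knockout (log2 difference -0.60 ± 0.59), and Ccn2 at 1367, 894 and 712 against 1684, 253 and 1255 (0.16 ± 0.60). Knockout library 2 was the lowest for both. In the other 4 comparisons 0 genes of the 4 lists were called, and 3 list genes had an unadjusted p under 0.05: Ankrd1 in the fibroblast group (-2.65 ± 1.01), Lats1 in endothelial-like cells, given above, and Rbms3 in endothelial-like cells (-0.52 ± 0.20). Ankrd1 rested on few UMIs, 13, 9 and 112 in controls 1 to 3 against 4, 1 and 8, so that control 3 carried most of the difference.

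Across classes, the pathway genes outside the 10 had their own centres, of which a few are given here, chosen after their values were seen. Vgll3 was highest in progenitor fibroblast-like cells (80.4 ± 25.4) and Fat4, an atypical cadherin upstream of the kinases, in periosteal stromal-like cells (79.3 ± 40.5). Stk4, a kinase that activates LATS, was highest in T or NK-like cells (185 ± 32.9) and lowest in osteoblast-like cells (18.6 ± 4.81), whereas its paralog Stk3 was highest in pericyte-like cells (41.0 ± 9.26) and at 4.98 ± 1.85 in neutrophil-like cells. Wwc2, a scaffold of the kinases, was highest in endothelial-like cells (174 ± 15.4) and Amotl1 in marrow stromal-like cells (261 ± 90.1). These are the highest class means, and the libraries that held each order were not counted. Tendon-like cells followed closely for Fat4 (67.8 ± 35.4) and endothelial-like cells for Amotl1 (217 ± 59.7), so their top classes are not settled.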

How the data were processed

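The deposited files hold whole-number UMI counts per gene and cell barcode, which the authors made with Cell Ranger (6.1.1 for both libraries numbered 1, 6.1.2 for the others, per the file headers) on GRCm38, without normalization. The gene lists had 55450 genes in libraries numbered 1 and 2 and 55357 in those numbered 3, and the 52081 shared genes, which held at least 97.8% of each library's UMIs, were used. Barcodes with at least 500 UMIs, 200 genes and at most 20% mitochondrial UMIs were kept (44937 of 46944), and 3072 likely doublets were taken out by rank of their Scrublet score (0.8% per 1000 cells). Cells were clustered on 2000 variable genes, members and pathway genes left out, with 30 components, Seurat 5.3.0 RPCA integration and Leiden resolution 0.8 (scanpy 1.11.5). A cluster was named from at least 3 markers found in 25% of its cells at 2-fold or more, and 8257 cells stayed unnamed. UMIs were summed per library and class with at least 10 cells and fitted in edgeR 4.0.16 by quasi-likelihood (two-sided, TMM factors, genes kept by filterByExpr, Benjamini-Hochberg), with DESeq2 1.42.0 as an alternative. Classes were compared only by counting libraries. The scripts were tested on simulated data. Named by rule are the members, 3 targets, the 3 genes most like each member and examples from the extremes of 4 pathway lists. Piezo1 is named as the targeted gene, list genes with an unadjusted p under 0.05 as such, and other pathway genes were chosen after their levels were seen. The members and lists were chosen with earlier results of these data known. Median UMIs per barcode ran from 2554 to 9289.5, and UMI counts limit the precision of low genes such as Tead4.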

Additional observations from a re-analysis of the deposited data

Results flagged for a closer look

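The check covered 118 sets of 6 libraries, each a member in a class with a mean of at least 5 UMIs per 1000000 UMIs (CPM). This limit was set after the data were seen, and Ccn1, Ccn2 and Ankrd1 were not checked. In 4 of the 118 sets the highest library lay apart from the others by Dixon's criterion, which chance meets in about 1 of 20 sets. All 4 were knockout library 2. Tead2 was at 23.06 CPM in its chondrocyte-like cells, against 3.282 to 5.952 in the other 5 libraries, at 47.06 in hypertrophic chondrocyte-like cells (others 2.321 to 16.86) and at 51.96 in endothelial-like cells (others 31.99 to 38.27). Ajuba was at 33.22 in its hypertrophic chondrocyte-like cells, against 5.536 to 10.27. Both chondrocyte classes of this library rest on 27 and 23 cells. Removing more likely doublets left 24 of these 50 cells, and whether they are doublets was not tested.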

How the results depend on the processing

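Of the members, 0 were called in any comparison under any alternative run, and 119 of 119 alternative values of the highest class levels stayed within 1 SD. Many of these values come from leaving out 1 of the 6 libraries, which cannot move a mean by 1 SD. For those values the count is no check. The highest class was the same in all settings for 8 members, in 8 of 12 for Lats1 and in 4 of 12 for Amotl2. Without a filter on low counts, 93 genes were called in the chondrocyte lineage, 39 in osteoblast-like cells, 1 in the fibroblast group, 54 in endothelial-like and 11 in macrophage-like cells, and DESeq2 called 2 in the chondrocyte lineage and 5 in macrophage-like cells. Leaving out both libraries numbered 1 gave 1 gene in endothelial-like and 1 in macrophage-like cells, and leaving out both numbered 3 gave 1 in the fibroblast group. The causes were not tested.

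Some member log2 differences changed sign, none of them called and all but that of Tead4 in the chondrocyte lineage (0.58) within 0.19 of 0. With both libraries numbered 3 left out Yap1 was at 0.0036 in the chondrocyte lineage and 0.0081 in endothelial-like cells, and with both numbered 1 left out Ajuba was at -0.0621 in endothelial-like cells. Ajuba in the chondrocyte lineage was at -0.201 with more doublets removed and at -0.0236 without integration. Over the fits that left out each library in turn, the chondrocyte lineage gave -0.4168 to 0.0444 for Yap1, -0.4274 to 0.1619 for Wwtr1, -0.0939 to 0.8981 for Tead4 and -0.4277 to 0.3828 for Ajuba, and endothelial-like cells gave -0.3729 to 0.0024 for Yap1, -0.2358 to 0.0261 for Wwtr1 and -0.0439 to 0.2912 for Tead2.

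The replicate numbers did not pair all libraries: the correlations of same-numbered libraries' deviations were 0.30, -0.10 and 0.03 in the chondrocyte lineage, and no comparison had all 3 above 0.1. Libraries numbered 1 correlated at 0.47 in osteoblast-like and 0.34 in endothelial-like cells, and at 0.13 in the fibroblast group and -0.01 in macrophage-like cells. Their values in the chondrocyte lineage, osteoblast-like and endothelial-like cells were the highest of any control and knockout pair there. With the replicate number as a block 0 genes and 0 members were called in each of the 5 comparisons. Depth limits Tead3 and Tead4, which were too low to be tested in several classes, and chondrocyte values of knockout library 2.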
